A study of Mus musculus with 12 samples.

Results

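H3K4me3 peaks found in the medial ganglionic eminence (MGE) and in none of 3 neighbouring dissections of the embryonic mouse forebrain were examined. H3K4me3 was profiled by CUT&Tag, in which an antibody brings a transposase to chromatin carrying the mark, and peaks had been called in the MGE, the lateral and caudal ganglionic eminences (LGE and CGE) and the cortex (CTX). The 4 peak lists were merged into 29785 union intervals, joining peaks that overlapped or touched, and an interval was kept when it held an MGE peak and no peak of LGE, CGE or CTX. There were 6562 such MGE-alone intervals, which is 22.0% of all union intervals and 25.9% of the 25339 MGE peaks. Each consisted of a single MGE peak.

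The tissue came from wild-type C57BL/6J embryos, and the cortex taken was the somatosensory part. The study's account of its results places these libraries at E12.5, while its methods and the protocol attached to the samples name both E12.5 and E14.5 without assigning an age to a region. Each region had 2 biological replicates from pooled embryos, sequenced as 12 libraries (3 of MGE, 2 of LGE, 4 of CGE and 3 of CTX). The dissections were whole tissue and thus held every cell type of the region, and a sentence of the protocol describes pooling nuclei of the 4 regions in equal numbers although each library is labelled with 1 region. Replicates were merged before peaks were called, so each region is represented by 1 list and no value below has a replicate error. The sequencing depth stated for MGE was lower, replicate for replicate, than that for LGE and CGE. The count stated for CTX replicate 1 is misprinted, so CTX depth was not compared. The number of reads behind a single peak is unknown. An interval without a peak in a list was not detected there, which does not show that the mark was absent.

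Trimethylation of histone H3 at lysine 4 marks the promoters of active and poised genes, where broad, strong domains form around the transcription start site (TSS), and weaker, narrower signal can also be seen at active enhancers. The MGE is the ventral telencephalic zone that gives rise to many cortical interneurons, to striatal interneurons and to early oligodendrocyte precursors. Its progenitors are defined by the homeodomain factor Nkx2-1, which depends on Sonic hedgehog, and their interneuron progeny by Lhx6.

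Peaks around Nkx2-1, the factor that defines MGE progenitors, were counted in each list. Nkx2-1 lies on chr12:56531958-56536908 (GRCm38, minus strand), and the next protein-coding gene on its downstream side is Mbip. The 186 kb between them held 11 MGE peaks, 4 CGE peaks, 1 LGE peak and 0 CTX peaks. Nkx2-1 itself, outside this span, carried peaks in all the eminence lists and none in CTX. Their folds were 1.98 and 3.05 in MGE, 2.89 in LGE and 2.91 in CGE. Of the 11 union intervals in this span, 7 were MGE alone, 3 were shared by MGE and CGE, and 1 by MGE, LGE and CGE. The rule selected those 7, so the counts give no separate check of the identity of the MGE list.

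The peak names carry running numbers, and some numbers were skipped in each list used here (MGE 33, LGE 59, CGE 64, CTX 31). For 38 MGE-alone intervals (0.579%), at least 1 of the other lists skipped a number between the peaks on either side, and in 16 of these all 3 other lists did so. Peaks with the skipped numbers were not analysed here, so whether those 38 intervals are MGE alone cannot be told. They include the 3 intervals of 500 bp or more with the highest −log10 q at protein-coding promoters, those of Trappc8, Lrrc59 and Ube2q2. Without the 38, 6524 intervals remained, 318 of them 500 bp or more.

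To show what kind of sequence carried these peaks, the central 200 bases of 6 MGE-alone intervals are given from the RefSeq GRCm38.p6 sequence, plus strand. They are the intervals with the highest −log10 q and the highest fold near Nkx2-1, those with the highest −log10 q nearest to Sox2 and Olig1, the highest-fold interval nearest to Tox3, and a high-fold interval in a simple repeat, nearest to Crygf. The 6 were chosen after their values were seen, and at Tox3 and Crygf the window extends beyond the peak. Capitals mark every match, on either strand, to TAATTA (a homeodomain core), CACTTNA (an NKX2 core), CAGCTG or CATCTG (E-boxes bound by basic helix-loop-helix factors).
Nkx2-1, chr12:56525481-56525680: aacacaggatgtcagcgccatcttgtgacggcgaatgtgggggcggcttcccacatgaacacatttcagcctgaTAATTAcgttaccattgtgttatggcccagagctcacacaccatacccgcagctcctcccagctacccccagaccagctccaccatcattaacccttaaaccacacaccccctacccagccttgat
Nkx2-1, chr12:56482746-56482945: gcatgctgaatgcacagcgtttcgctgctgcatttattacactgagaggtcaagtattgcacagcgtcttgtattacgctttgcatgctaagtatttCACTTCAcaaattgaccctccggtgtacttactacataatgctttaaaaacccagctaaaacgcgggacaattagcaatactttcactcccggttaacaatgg
Sox2, chr3:34659905-34660104: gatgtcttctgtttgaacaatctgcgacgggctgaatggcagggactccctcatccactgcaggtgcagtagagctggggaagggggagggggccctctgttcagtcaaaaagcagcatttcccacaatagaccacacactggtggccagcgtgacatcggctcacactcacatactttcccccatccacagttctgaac
Olig1, chr16:91293029-91293228: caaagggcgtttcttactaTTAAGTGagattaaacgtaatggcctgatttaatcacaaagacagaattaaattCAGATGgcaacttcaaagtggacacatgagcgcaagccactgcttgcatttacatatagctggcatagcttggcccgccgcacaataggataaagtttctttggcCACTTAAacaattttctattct
Tox3, chr8:90244766-90244965: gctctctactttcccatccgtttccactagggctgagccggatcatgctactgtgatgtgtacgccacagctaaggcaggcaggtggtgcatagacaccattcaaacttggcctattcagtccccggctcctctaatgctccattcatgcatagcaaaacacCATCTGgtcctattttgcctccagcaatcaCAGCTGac
Crygf, chr1:65886301-65886500: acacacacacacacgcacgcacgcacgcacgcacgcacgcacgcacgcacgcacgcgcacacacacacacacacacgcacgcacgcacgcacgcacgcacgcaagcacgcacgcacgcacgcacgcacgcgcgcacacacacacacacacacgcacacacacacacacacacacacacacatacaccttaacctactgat
The windows near Nkx2-1, Olig1 and Tox3 held 1 to 3 matches, those of Sox2 and Crygf none of the 4 motifs. A match is a run of letters and not evidence that a factor bound there.

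MGE-alone intervals were narrow and weak. Their median width was 167 bp (95% interval of the median 166 to 169), against 771 bp for the 18777 MGE peaks in intervals shared with another list. In all, 4224 of them (64.4%) were under 200 bp and they covered 1441 kb, or 8.42% of the bases under MGE peaks. The fold of a peak, the authors' ratio of reads in the peak to the local background, had a median of 3.34 in MGE-alone intervals and 5.41 in shared MGE peaks. The median −log10 q, the peak caller's confidence after correction for multiple testing, was 1.42 against 10.1. Width, fold and q belong to the lists that chose the intervals, so these values describe the selection.

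The weakest peaks made up a large share of the MGE-alone intervals. An identical pair of values, a fold of 3.11 with a −log10 q of 1.05, was carried by 1749 MGE-alone intervals (26.7%) and by 181 shared MGE peaks (0.964%). No other pair was carried by more than 10 MGE-alone intervals. A −log10 q under 2 was found for 4920 intervals (75.0%), and 117 reached 5. The narrowest peak of the LGE and CGE lists was 242 bp wide, against 114 bp in MGE and 122 bp in CTX, and 4897 MGE-alone intervals (74.6%) were narrower than every LGE and CGE peak.

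The share of MGE peaks that were alone fell with width and strength. It was 74.6% of 5664 peaks under 200 bp, 44.0% of those from 200 to under 300 bp and 25.6% of those from 300 to under 500 bp. Above this it was 6.66% from 500 to under 750 bp, 1.24% from 750 to under 1000 bp and 0.245% of the 6133 peaks of 1000 bp or more. Across bins of −log10 q it went from 80.8% between 1 and 1.5 to 0.0742% at 10 or more, which was 7 of 9435 peaks.

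**Figure D1:**
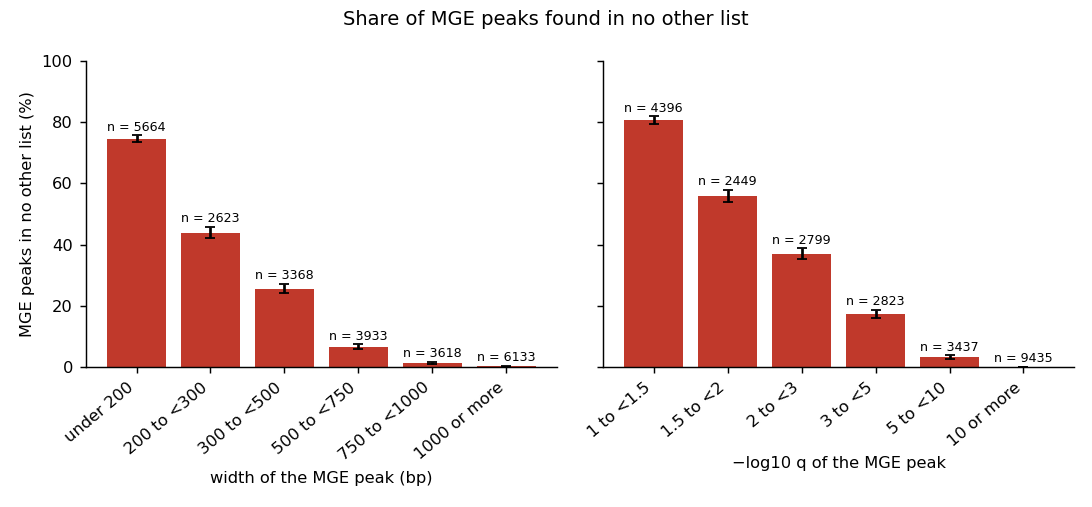
Share of MGE peaks (percent) found in no other list, in bins of peak width (bp, left) and of −log10 q (right). Bars give the share, error bars the Wilson 95% interval (counting error only) and n the MGE peaks in the bin. The share fell from 74.6% under 200 bp to 0.245% at 1000 bp or more.

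At the edge of the rule the values were alike. In 31 MGE-alone intervals a peak of another list came within 50 bp, and these had a median fold of 3.28 and a median width of 171 bp. The 80 shared MGE peaks that overlapped other lists by 1 to 50 bp had a median fold of 3.45 and a median width of 167 bp. Most MGE-alone intervals were far from this edge. The median distance to the nearest peak of another list was 23366 bp, and 842 intervals (12.8%) had one within 5 kb.

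The rule did not use gene annotation, but it removed every place with a peak of another list. Of the intervals found in all 4 lists, 85.3% lay over a TSS, so the location of MGE-alone intervals is partly tied to the rule. A TSS of any annotated gene lay within 2 kb of 1061 intervals (16.2%, Wilson 95% interval 15.3 to 17.1), and 146 (2.22%) lay over one. By comparison, 10.7% of the reference sequence is within 2 kb of a TSS, and 88.5% of the intervals found in all 4 lists were. The share was 20.0% (18.7 to 21.3) in CTX-alone intervals, 36.8% (31.8 to 42.2) in LGE-alone and 47.5% (43.4 to 51.7) in CGE-alone intervals. The widths, strengths and depths of these single-list classes also differed. The ranges cover counting error within the merged list of each region, so they do not test a difference between regions. The median distance from an MGE-alone interval to the nearest TSS was 10600 bp (10164 to 11041), 247 intervals (3.76%) were over 100000 bp away, and for 3552 (54.1%) the nearest TSS was that of a protein-coding gene.

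**Figure D2:**
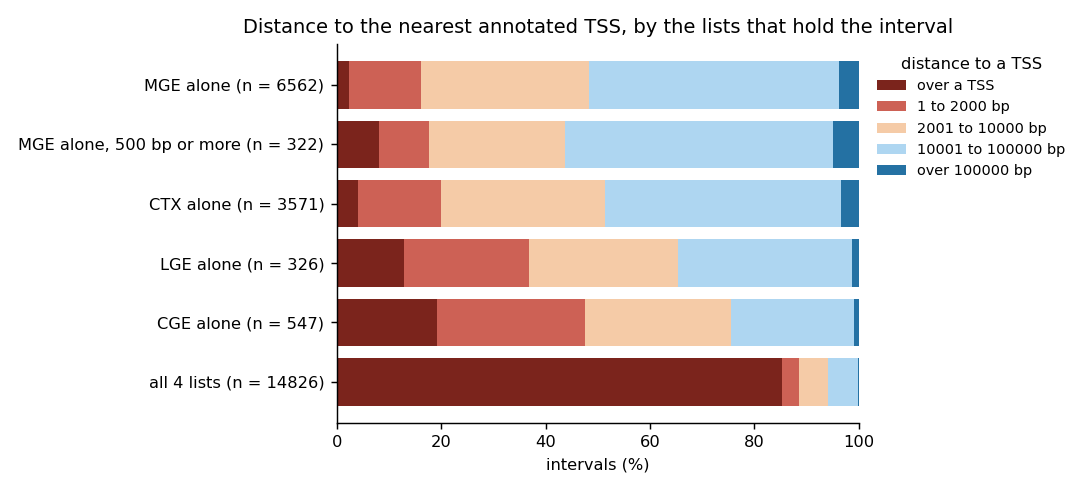
Distance to the nearest annotated TSS for intervals of 6 classes, as the percent of each class, coloured from dark red (over a TSS) to dark blue (over 100000 bp). MGE-alone and CTX-alone intervals lay within 2 kb of a TSS in 16.2% and 20.0% of cases, and intervals of all 4 lists in 88.5%.

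Within genes, introns predominated. MGE-alone intervals overlapped an exon without a TSS in 652 cases (9.94%), lay wholly in introns in 3128 (47.7%) and outside gene bodies in 2636 (40.2%, 39.0 to 41.4), where 55.2% of the reference lies. Of CTX-alone intervals, 47.5% lay in introns and 37.4% outside genes (35.8 to 39.0). Here too the ranges cover counting error only and do not test a difference between regions. Coding sequence was overlapped by 417 MGE-alone intervals (6.36%). Chromosome X held 42 intervals (0.640%), against 1.04% of CTX-alone intervals, and chromosome Y held 1.

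The 322 MGE-alone intervals of 500 bp or more are considered separately. They were 1.81% of all union intervals of that width and 2.35% of the 13684 MGE peaks of that width. The threshold did not fall at a gap in the widths, since 152 intervals were from 450 to under 500 bp wide and 111 from 500 to under 550 bp. Their median width was 598 bp (581 to 618), 15 reached 1000 bp, and the widest was 1414 bp. The median fold was 3.57 and the median −log10 q 1.78. A TSS lay within 2 kb of 57 of them (17.7%, 13.9 to 22.2) and under 26 (8.07%), while 148 were intronic and 117 intergenic (36.3%). Over a TSS, the share was 8.07% (5.57 to 11.6) for the wide intervals and 2.22% (1.90 to 2.61) for all MGE-alone intervals. A wider interval covers a given point more often, and the median widths were 598 and 167 bp, so this contrast is tied to width. Within 2 kb of a TSS the shares were 17.7% and 16.2%.

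Among the wide intervals at protein-coding promoters, the 3 with the highest −log10 q were those where the other lists skipped a number. The interval over the TSS of Trappc8, a subunit of a vesicle-tethering complex, was 852 bp wide with a fold of 11.7 and a −log10 q of 30.5. The interval 99 bp from a TSS of Lrrc59, an endoplasmic reticulum membrane protein, was 1011 bp wide with a fold of 7.08. The interval over the TSS of Ube2q2, a ubiquitin-conjugating enzyme, was the widest of all at 1414 bp, with a fold of 4.38. LGE, CGE and CTX each skipped a number around these 3 genes, so the promoters cannot be called MGE alone.

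The next 7 had no such skip. Over a TSS lay the intervals of Zfp106 (504 bp, fold 5.56), Ppp1r9a, a neuronal actin-binding protein also called neurabin (541 bp, fold 5.04), Mboat7, a lysophospholipid acyltransferase (646 bp, fold 4.74), and Cmklr1, the chemerin receptor (555 bp, fold 4.63). Rpgrip1, Mad1l1 and Rasa4 had intervals of 527 to 630 bp at 394 to 1879 bp from a TSS, with folds of 4.51 to 4.64. Their −log10 q values ran from 3.37 for Rpgrip1 to 5.47 for Zfp106. Of these genes Zfp106, Ppp1r9a, Mboat7, Rasa4, Mad1l1 and Rpgrip1 also had a peak of another list within 2 kb of one of their TSSs, and Cmklr1 did not.

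The 10 strongest wide intervals over 2 kb from every TSS were largely repeats. All 200 central bases were soft-masked, which marks interspersed and simple repeats in the reference, in 7 of the 10, those nearest to Dcp1a, Spg11, Sipa1l2, Itga8, Irak1bp1, Asb7 and St8sia1. The interval nearest to Dcp1a, a decapping factor, lay in an intron of the calcium channel gene Cacna1d and was 938 bp wide with a fold of 8.16 and a −log10 q of 10.4. Of the 3 that were mostly unmasked, the interval in an intron of Tle3, a Groucho corepressor, was 515 bp wide with a fold of 4.70 and a −log10 q of 7.23, and the nearest peak of another list was 186 bp away. The others were nearest to Snx18, a sorting nexin (505 bp, fold 5.53), and E130114P18Rik (832 bp, fold 5.52).

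The widest intervals were not the strongest. After Ube2q2 came intervals nearest to Pfkfb4, a regulator of glycolysis (1362 bp), Shc3, a neuronal signalling adaptor (1303 bp), Tspan9 (1273 bp), Khdrbs1 (1211 bp) and Mbip (1165 bp). Those nearest to Ell, Gstz1, Cxcr4 and Nrf1 were 1105 to 1155 bp wide. Folds over the 10 ran from 3.36 to 4.38. The interval at Pfkfb4 ended 89 bp from a peak of another list and was soft-masked throughout its central window.

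The 10 highest folds ran from 7.08 to 11.7. Apart from Trappc8 and Lrrc59 they were nearest to Hspa5 (8.74), Dcp1a (8.16), Rps12 (8.07), Crygf (7.90), Ass1 (7.84), Gm11084 (7.47), Anxa3 (7.45) and Glrx2 (7.13). In 5 of the 10 the central window was at least 50% soft-masked, and the window at Crygf is the CA-rich and CG-rich repeat printed above. Of the 38 intervals with a fold of 6 or more, 17 (44.7%) were at least 50% soft-masked, 4 lay within 2 kb of a TSS, and the median width was 228.5 bp.

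The intervals farthest from any other list were narrow. The 10 longest distances ran from 1266875 to 2009403 bp, and the intervals were nearest to Pik3c3, Slc10a2, Tpm3-rs7, Tecrl, B230118H07Rik, Adam6a and Nudt12. They were 124 to 407 bp wide, 9 of the 10 were at least 50% soft-masked and 5 carried the commonest pair of values. The TSSs closest to the intervals at Adam6a were those of Ighv1-12 and Ighv1-25, variable genes of the immunoglobulin heavy chain.

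At the Nkx2-1 locus 10 MGE-alone intervals were nearest to Nkx2-1 or Mbip. The strongest, chr12:56525429-56525733, was 305 bp wide with a fold of 4.88 and a −log10 q of 26.3. It was the second strongest of all MGE-alone intervals and, with Trappc8 set aside, the first. It lay 9373 bp from the nearest Nkx2-1 TSS in an intron of the pseudogene Sfta3-ps, and 2392 bp from a peak of another list.

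The interval chr12:56482734-56482957 had the highest fold of the 10 at 5.44, was 224 bp wide and had a −log10 q of 5.07. It lay outside genes, 52149 bp from the nearest Nkx2-1 TSS and 23374 bp from any peak of another list. The widest, chr12:56387041-56388205, was 1165 bp with a fold of 4.07 and lay 40879 bp from any other list. Next to the gene, chr12:56537573-56537693 was 121 bp wide with a fold of 2.36 and a −log10 q of 6.19 and lay 665 bp from an Nkx2-1 TSS, in an intron of the transcript Gm26973.

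The other 6 intervals had folds of 3.11 to 3.68 and −log10 q values of 1.05 to 1.99, on both sides of the medians of 3.34 and 1.42 over all MGE-alone intervals. Their widths were 498, 385, 200, 178, 134 and 124 bp, and 2 of them carried the commonest pair of values. None of the 10 had a skipped number in another list, and no LGE-alone, CGE-alone or CTX-alone interval was nearest to Nkx2-1 or Mbip.

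**Figure D3:**
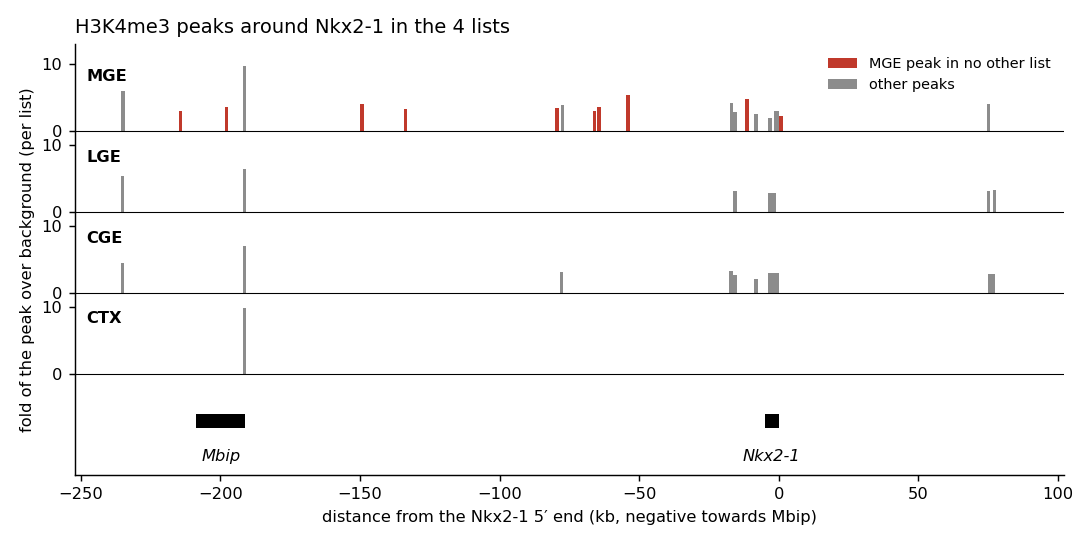
H3K4me3 peaks around Nkx2-1 in each list, by distance from the 5′ end of Nkx2-1 (kb) and fold over background (each list on its own scale of 0 to 10). Red bars are MGE peaks in no other list, grey bars all other peaks, black boxes the gene bodies, and peaks narrower than 1.2 kb are drawn 1.2 kb wide. The 7 red bars between Mbip and Nkx2-1 stand where LGE, CGE and CTX had no peak.

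The nearest protein-coding gene was used to name each interval, which assigns position and not function. In this sense 4439 of 21924 protein-coding gene symbols (20.2%) were nearest to at least 1 MGE-alone interval, 459 to 3 or more and 79 to 5 or more. The corresponding shares were 11.96% for CTX-alone, 2.33% for CGE-alone and 1.44% for LGE-alone intervals. Each gene's territory, the stretch of genome closer to its TSSs than to those of other protein-coding genes, sets how many intervals it can collect, and the mean over the genome was 2.41 MGE-alone intervals per Mb.

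Gse1, which encodes a coiled-coil protein of chromatin corepressor complexes, was nearest to the most intervals, 16 in a territory of 376 kb. Of these 15 lay in its gene body and 9 had a −log10 q of 2 or more. Their widths ran from 117 to 462 bp, their highest fold was 5.12, and 2 CTX-alone and 3 CGE-alone intervals were nearest to the same gene. Sall3, a zinc-finger factor, was nearest to 11 intervals, none in its own gene body. Gm26897 and Zfhx3, a zinc-finger homeobox factor, had 10 each, the latter all within its gene body.

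The other genes of the first 10 were Cdh4 (R-cadherin), Med13l (a Mediator subunit), Rybp (a Polycomb subunit) and Tle3 with 9 intervals each, and Dhx35 and Cdh26 with 8 each. These genes were picked for their MGE-alone counts, and there were 6562 MGE-alone but 3571 CTX-alone intervals in all, so nothing is read from the CTX-alone counts, which were 9 at Cdh4, 6 at Tle3 and 1 at Dhx35. MGE-alone intervals with a −log10 q of 2 or more numbered 3 at Cdh4 and Tle3, and 0 at Cdh26.

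The intervals were partly clustered. With members less than 50 kb apart joined, 334 runs held 3 or more and 1196 intervals in all, while 3914 intervals (59.6%) had no other within 50 kb. The run at Gse1 held 14 intervals in 261 kb. A run of 8 in 139 kb was nearest to Dlx3, Dlx4, Itga3 and Tac4, and was chosen for mention after its values were seen.

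Of 36 MGE lineage genes, 22 were nearest to at least 1 MGE-alone interval (61.1%, against 20.2% of all protein-coding genes) and 10 to a CTX-alone interval (27.8%, against 11.96%). Per Mb of territory, the list had 3.02 MGE-alone and 1.63 CTX-alone intervals, against 2.41 and 1.31 over the whole genome, so both classes were above their background. The territories of the 36 genes summed to 17.2 Mb, and no test of the lists was made. With a −log10 q of 2 or more, 10 of the 36 genes remained, where 6.60% of all genes did, shares that are not adjusted for territory. The list held 12 such intervals in its 17.2 Mb, and the genome 1642 in 2725.54 Mb.

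Among these genes, Lhx8, a factor of cholinergic and other MGE neurons, was nearest to 3 intervals, the strongest 302 bp wide with a fold of 4.57 and a −log10 q of 3.45. Lhx6, with 1 interval and thus outside the rule for named genes, had chr2:36077293-36077759, which was 467 bp wide with a fold of 6.00 and a −log10 q of 7.34 and lay 16514 bp from its nearest TSS. Cxcr4 and Ackr3, the receptors that guide migrating interneurons along the chemokine Cxcl12, were nearest to 4 each, with 1 interval of 500 bp or more at each gene. Tox2 had 3 intervals including a wide one of 738 bp, Mef2c had 3, of which 1 reached a fold of 6.46, and Cux2 had 4. CTX-alone intervals numbered 4 at Mef2c, 4 at Cux2, 3 at Cxcr4, 2 at Tox2, 1 at Ackr3 and 0 at Lhx8 and Lhx6. Sox6, named after its values were seen, had 5 CTX-alone and 2 MGE-alone intervals.

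Of 25 genes used across the ganglionic eminences, 16 were nearest to an MGE-alone interval (64.0%) and 6 to a CTX-alone interval (24.0%), against 20.2% and 11.96% over all protein-coding genes. Their density, 7.47 MGE-alone intervals per Mb, was the second highest of the 13 lists. CTX-alone intervals numbered 3.11 per Mb. The genome-wide densities were 2.41 and 1.31, so both classes were above their background. Dlx2, a homeodomain factor of GABAergic neurons, was nearest to 4 intervals, among them a wide one of 525 bp with a fold of 1.78, and to 1 LGE-alone interval. Gsx2, a homeodomain factor of ventral progenitors, had 2 intervals, of which the wider, chr5:75082695-75083731, measured 1037 bp with a fold of 3.79 and ended 683 bp from a peak of another list. Six3 had 3 intervals and Otx2 had 2, 1 of them 867 bp wide.

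Sox2, the progenitor factor, was nearest to 6 MGE-alone and 6 CTX-alone intervals. The strongest MGE-alone one, chr3:34659905-34660104, was 200 bp wide with a fold of 3.87 and a −log10 q of 9.31, lay in an intron of the overlapping transcript Sox2ot and was 1039 bp from a peak of another list. The MGE-alone intervals at Sox2 had folds of 3.68 to 5.28.

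The 13 oligodendrocyte precursor genes had the highest density, 8.84 MGE-alone intervals per Mb against 2.21 CTX-alone, and 9 of the 13 genes (69.2%) were nearest to one, against 2 (15.4%) for CTX alone (20.2% and 11.96% over all protein-coding genes). Olig1 and Olig2, basic helix-loop-helix factors that are neighbours and also belong to the eminence list, had 3 intervals each. At Olig1 these were 808, 239 and 954 bp wide with folds of 4.23, 3.99 and 3.26, and at Olig2 they were 536, 565 and 162 bp wide with folds of 3.71, 3.74 and 2.06. Thus 4 of the 6 were 500 bp or more. No CTX-alone interval was nearest to Olig2 and 1 was nearest to Olig1.

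In the same list Gpr17, a receptor of committed precursors, had an interval of 571 bp over its TSS with a fold of 3.84 and a −log10 q of 2.21, and no other list had a peak within 2 kb of its TSS. Sox9 was nearest to 6 intervals, 1 of them 626 bp wide, and to 4 CTX-alone intervals. Sox10, Pdgfra, Nkx2-2 and Sox8 had 1 each, and that of Nkx2-2 lay in a stretch where another list skipped a number. The territories of the 13 genes summed to 2.26 Mb and held 20 intervals in all.

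Of 22 Sonic hedgehog pathway genes, 12 were nearest to an MGE-alone interval (54.5%) and 9 to a CTX-alone interval (40.9%), where the shares over all genes were 20.2% and 11.96%. The densities were 5.64 and 4.17 per Mb, against 2.41 and 1.31 over the genome, so both classes were above their background. Shh, the ligand, was nearest to 3, all weak (folds 3.20, 3.15 and 3.11) and in introns of the neighbouring transcript 9530036O11Rik, at least 109231 bp from a Shh TSS, and 1 of them was 578 bp wide. Gli2, a transcriptional effector, was nearest to 6 with folds of 3.11 to 3.33, of which 1 was 700 bp wide, and to 2 CTX-alone intervals. Gli3 had a single interval, 725 bp wide with a fold of 3.26. With a −log10 q of 2 or more, 2 of the 22 genes remained, where 6.60% of all genes did. The list held 3 such intervals in 4.08 Mb, and the genome 1642 in 2725.54 Mb.

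Among the other lists, genes of interneuron migration and guidance were nearest to an MGE-alone interval in 29 of 42 cases (69.0%, against 20.2% of all genes) and had 1.66 intervals per Mb, below the genome-wide 2.41. For CTX-alone intervals there were 16 of 42 cases (38.1%, against 11.96%) and 0.843 intervals per Mb, also below the genome-wide 1.31. Plxna2, a semaphorin receptor, was nearest to 6 intervals and to none of the other single-list classes. Cdh13 was nearest to 5, Slit1, Slit3 and Epha4 to 3 each, with a wide interval of 573 bp at Epha4 and one of 830 bp at Epha3.

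In the cortex list, 15 of 31 genes were nearest to an MGE-alone interval (48.4%) and 21 (67.7%) to a CTX-alone interval. The densities were 3.81 and 7.08 per Mb. Over all genes the shares were 20.2% and 11.96%, and the densities 2.41 and 1.31 per Mb. Both classes were thus above their background, and the MGE-alone density was above the 3.02 per Mb of the MGE lineage genes. Cux1 and Sox5 were nearest to 6 MGE-alone intervals each, beside 2 and 3 CTX-alone ones. Wnt7b had 3, Tcf4 had 4 and Nfia had 2. Genes of the LGE and striatum gave 11 of 24 (45.8%) against 13 of 24 (54.2%), with 4 MGE-alone intervals each at Meis1 and Bcl11b. Per Mb this list had 2.14 MGE-alone intervals, below the genome-wide 2.41, and 2.24 CTX-alone intervals. CGE lineage genes gave 8 of 16 (50%) against 7 of 16 (43.8%), and Nr2f2 was nearest to 3 MGE-alone and 5 CGE-alone intervals. The CGE lineage list had 1.67 MGE-alone intervals per Mb, also below 2.41, and 2.43 CTX-alone intervals. Hypothalamic and preoptic genes gave 10 of 24 (41.7%) against 6 of 24 (25%), at densities of 3.62 and 1.71 per Mb. Lhx5, Barhl1 and Tcf7l2 had 3 MGE-alone intervals each.

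Lists for other cell types that the dissections could hold were examined in the same way, again beside 20.2% for MGE alone and 11.96% for CTX alone over all genes. Endothelial and pericyte genes were nearest to an MGE-alone interval in 7 of 20 cases (35.0%) and to a CTX-alone interval in 0 of 20, with 4.51 and 0 intervals per Mb. Pecam1, an endothelial adhesion molecule, had 3 (124, 211 and 535 bp wide, folds 3.11 to 3.74), and Cdh5 and Flt1 had 3 each with folds of up to 3.32 and 4.04. Microglial and blood genes gave 3 of 20 (15.0%) against 2 of 20 (10.0%), both below the shares over all genes. Per Mb, however, they had 3.20 MGE-alone and 1.07 CTX-alone intervals, against 2.41 and 1.31 over the genome. There were 3 intervals at Ptprc. Meningeal and mesenchymal genes gave 8 of 18 (44.4%) against 6 of 18 (33.3%), with none at a −log10 q of 2 or more. Their densities were 2.63 and 1.84 per Mb. Pan-neuronal genes gave 13 of 26 (50%) against 10 of 26 (38.5%), with 5 intervals at Celf4, 4 at Rbfox3 and 3 at Gap43. The densities of this list, 1.83 MGE-alone and 0.947 CTX-alone intervals per Mb, were below those over the genome. The part of cells of other types in these intervals was not tested.

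**Figure D4:**
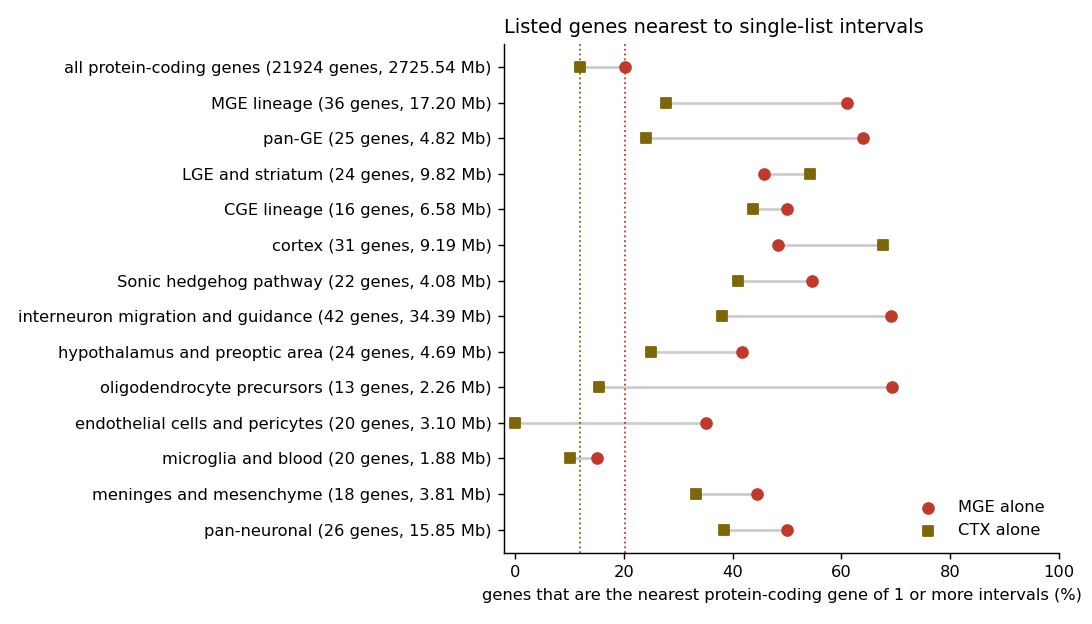
Percent of the genes in each list that were the nearest protein-coding gene of at least 1 MGE-alone interval (red circles) or CTX-alone interval (brown squares), with the number of annotated genes and the summed territory of each list. Dotted lines mark the shares over all protein-coding genes, 20.2% and 11.96%. The shares are not adjusted for territory. Of the 13 lists, the cortex list and the LGE and striatum list had a larger share for CTX alone than for MGE alone.

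At promoters, 687 of 21951 protein-coding genes (3.13%) had an MGE-alone interval within 2 kb of a TSS. In 486 of these another list also had a peak within 2 kb of a TSS of the same gene, so the gene itself was not marked in MGE alone. The other 201 genes had no peak of another list there. Among them, other lists skipped a number at Trappc8, Lrrc59, Ube2q2, Hc, Zfp772, Entpd6, Cnn1 and Nmrk2, so these genes cannot be called MGE alone. The strongest intervals of the 201 genes were weak, with a median −log10 q of 1.49, and 40 genes reached 2. An MGE-alone interval lay over a TSS in 106 genes, 46 of them without another list within 2 kb.

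An interval of 500 bp or more was present at 14 of the 201 genes. With Trappc8, Lrrc59 and Ube2q2 set aside, these were Cmklr1, Myh3, Gpr17, Cd300lg, Olfr279, S100a16, Fer1l4, Scgb1c1, Gm1110, Ifitm1 and Ripor3. Folds were 3.11 to 4.63 over the 11 genes, and 3 of them (Gm1110, Ifitm1 and Ripor3) were at 3.11. Apart from Cmklr1 and Gpr17, these genes fall outside the rule for named genes, so they were picked with their values in view.

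The rule did not use the sequence of the central 200 bp. It did remove places with a peak of another list, so composition is partly tied to the rule as well. The median GC content of MGE-alone intervals was 51.5%, against 52.0% for CTX-alone intervals, 64.0% for intervals of all 4 lists and 41.7% of the reference. The median number of CpG dinucleotides was 2, against 3 and 14. At least 50% of the window was soft-masked in 1402 MGE-alone intervals (21.4%, 20.4 to 22.4), against 9.86% of CTX-alone (8.92 to 10.9), 4.75% of CGE-alone and 4.29% of LGE-alone intervals. Of the whole reference, 36.4% of bases are soft-masked, but this is a share of bases and cannot be set against these shares of windows. The share in wide MGE-alone intervals, 20.5%, was close to that in all of them.

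Motifs were compared among intervals over 2 kb from a TSS. TAATTA was found in 4.07% of 5501 MGE-alone windows (3.58 to 4.63), in 11.9% of 2858 CTX-alone windows (10.8 to 13.1) and in 4.76% of windows of all 4 lists (3.84 to 5.87). In wide MGE-alone intervals, wherever they lay, it was found in 9.01% (6.34 to 12.6), and over all 29785 union intervals, of which 56.6% lay within 2 kb of a TSS, in 3.93%. TTGGCA, a core of nuclear factor I sites, was found in 10.2% of the distal MGE-alone and 14.7% of the distal CTX-alone windows. CAGCTG went the other way, at 17.8% (16.8 to 18.8) against 14.1% (12.8 to 15.4), where distal windows of all 4 lists had 15.4% (13.8 to 17.2) and all union intervals 14.1%.

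The NKX2 core CACTTNA was found in 10.2% of distal MGE-alone and 10.5% of distal CTX-alone windows (9.41 to 11.0 and 9.39 to 11.6), in 7.28% of distal windows of all 4 lists (6.14 to 8.61) and in 7.04% of all union intervals. CATCTG was found in 16.0% and 16.1%, against 11.7% of distal windows of all 4 lists (10.3 to 13.4) and 11.6% of all union intervals. The GC box GGGCGG was found in 5.74% of distal MGE-alone windows, in 26.5% of distal windows of all 4 lists and in 25.9% of all union intervals. Soft-masking and depth differed between the classes as given above, and their part in the motif shares was not tested.

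**Figure D5:**
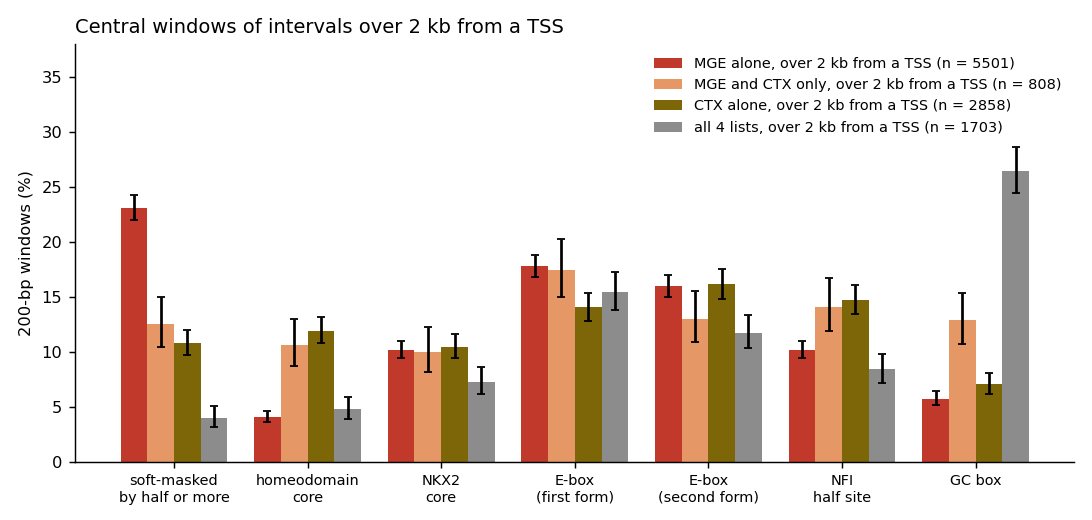
Percent of 200-bp central windows that were at least 50% soft-masked or held a motif, for intervals over 2 kb from a TSS in 4 classes. Bars give the share and error bars the Wilson 95% interval. The first E-box form is CAGCTG and the second CATCTG. MGE-alone windows were soft-masked more often (23.1%) and held the homeodomain core less often (4.07%) than CTX-alone windows (10.8% and 11.9%).

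Overlap with enhancers was read from the 135 intervals that the study lists as presumptive forebrain enhancers intersecting VISTA candidates, a list built from single-nucleus accessibility and single-cell RNA data of the same regions and from acetylation peaks of whole forebrain. In all, 18 MGE-alone intervals (0.274%, 0.174 to 0.433) overlapped 18 of them (13.3%), against 18 CTX-alone intervals (0.504%, 0.319 to 0.795) and 0.440% of all union intervals. Among intervals over 2 kb from a TSS, the shares were 0.309% for MGE alone and 0.490% for CTX alone. They were 2.10% for MGE and CTX only and 2.82% for all 4 lists. Median widths of these distal classes ran from 167 bp (MGE alone) to 916 bp (all 4 lists), and the part of width was not tested. The 18 MGE-alone intervals included 2 at Nkx2-1, chr12:56457269-56457653 and chr12:56482734-56482957, and 1 at Sox2. The interval printed at Tox3, a high-mobility-group box factor, was 123 bp wide with a fold of 5.81 and a −log10 q of 5.78. The wide interval at Olig1, chr16:91292725-91293532, was the only one of 500 bp or more among the 18.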

How the data were processed

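H3K4me3 CUT&Tag libraries of 4 regions were analysed from the deposited broad-peak lists. According to the study's methods, the authors aligned reads with Bowtie2 to GRCm38/mm10, removed blacklisted regions and duplicates (Picard), merged replicates with SAMtools and called broad peaks with MACS. The MACS version, threshold and control are not given in the sources used here. The deposited columns hold a score, a fold (ratio of reads to background), −log10 p (not used here) and −log10 q. Processing notes also name deepTools.

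Lists were merged into union intervals in Python 3.11.15 (numpy 2.4.6, pandas 2.3.3, scipy 1.17.1, pysam 0.24.0, samtools 1.23.1, matplotlib 3.10.9) and placed on 55450 GENCODE M21 genes. Soft-masking, GC and motifs were read from RefSeq GRCm38.p6 in 200-bp central windows. Shares have Wilson 95% intervals and medians order-statistic intervals, which cover counting error only. All 5 interval functions matched base-by-base counts on simulated data.

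Named were the 10 widest, highest −log10 q, highest fold and most distant intervals, 10 promoter and 10 distal intervals of 500 bp or more, the 10 genes nearest to most intervals, and listed genes with a wide interval or at least 3 intervals. The members and lists were chosen with earlier results of these data known. Alternatives changed thresholds, list sizes, overlap, annotation and windows. Results on some genes are not reported here.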

Additional observations from a re-analysis of the deposited data

How the results depend on the processing

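The number of MGE-alone intervals, 6562, and of those of 500 bp or more, 322, depended on the strength required. With a −log10 q of at least 2 in every list they were 1830 and 173, with that limit in MGE only 1642 and 137, with lists cut to equal numbers by fold 1713 and 154, and by −log10 q 1323 and 136. With the narrowest LGE peak as the common minimum width the number was 1855. The median width of 167 bp became 196.5, 191, 195, 201 and 361 bp in these 5 settings, 171 bp when sharing needed 50% of a peak, and 169.5 and 173 bp without the CGE and CTX lists.

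The share within 2 kb of a TSS, 16.2%, was 17.3% with −log10 q of at least 2 in every list, 17.7% with equal lists by −log10 q and 17.3% with the common minimum width. It was 15.1% and 14.4% when another list within 1 or 5 kb counted as shared, 17.1% and 17.4% without the CGE and CTX lists, and 18.02% without intervals at least 50% soft-masked. It was 10.7% for protein-coding TSSs, 8.85% for gene 5′ ends, 10.2% within 1 kb and 29.5% within 5 kb. The share outside gene bodies, 40.2%, was 37.9% without soft-masked intervals and 47.3% outside protein-coding genes. The median GC content of 51.5% was 51.8% over whole intervals, 50.5% over 400 bp and 52.5% without soft-masked intervals. The share holding TAATTA, 3.75%, was 7.28% over 400 bp and 4.46% without soft-masked intervals. Over 400 bp CACTTNA went from 10.1% to 19.5%, CAGCTG from 18.1% to 28.8% and CATCTG from 16.2% to 29.7%, since the longer window holds more letters. The 687 promoter genes became 442 within 1 kb, 408 with 2 kb upstream only, 225 at gene 5′ ends and 201 with no other list within 2 kb. The cause of these changes was not tested. Leaving out intervals where another list skipped a number, or those at least 50% soft-masked, were alternatives chosen after seeing the data.

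No paired analysis was possible because replicates had been merged before peaks were called, and leaving out a replicate was not run for the same reason. The reads behind each peak are unknown, which limits what a missing peak can show.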
